A study of Mus musculus with 10 samples.

Results

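Expression of 10 genes of interleukin signalling was followed in mouse B cells with and without Pcbp1. The genes were the receptor subunits Il4ra, Il21r, Il2rg and Il9r, the transcription factor Stat6, the feedback inhibitors Socs1, Socs2, Socs3 and Cish, and the chemokine Ccl22. They were taken by name, with earlier results of these data known. All 10 were among the 55492 gene symbols counted, and all 10 were among the 21010 genes with enough counts to test. RNA was sequenced from splenic naive B cells on day 0 and from induced germinal center B cells (iGCB) on day 4. The iGCB cells are primary B cells grown on 40-LB feeders, a fibroblast line engineered to present CD40 ligand and BAFF. WT and KO cells were compared at each stage, with 2 libraries per genotype of naive cells and 3 per genotype of iGCB cells. KO cells carried Pcbp1 fl/fl with Mb1-Cre, which is active from early B cell development. The labels name no cytokine in the medium, and give neither the strain, age or sex of the mice, nor whether WT mice carried Cre. They also do not say whether each library came from its own animal. The p-values therefore reflect only how far these libraries scatter, which may be technical.

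IL-4 binds a receptor made of the IL-4 receptor alpha chain, encoded by Il4ra, and the common gamma chain, encoded by Il2rg, which IL-21 and IL-9 receptors share. Bound receptors activate JAK kinases, which phosphorylate STAT proteins, with STAT6 the main one downstream of IL-4. STAT proteins in turn induce SOCS proteins and CISH, which bind receptors or JAKs and limit further signalling. In B cells IL-4 and IL-21 act on class switching and on germinal center responses, and CCL22, a ligand of the receptor CCR4, attracts helper T cells.

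RefSeq promoter windows (GRCm38.p6, the assembly also called mm10, from 250 bases before to 50 bases after the start site) were given for 9 of the 10 genes, all but Socs2. They were searched for TTC and GAA with 4 bases of any kind between them, the spacing STAT6 prefers, and with 3 bases between them, the spacing of other STAT proteins. Each pattern is its own reverse complement, so both strands were read at once, and no window of these genes held both patterns. The 4-base spacing was in 0 of the 9 windows and in 6.95% of all 32851 windows. The 3-base spacing was in the windows of Cish and Socs3 and in 8.3% of all windows. The Cish window held 2 matches, TTCCTGGAA from the start site and TTCTTGGAA 11 bases after it, and 0.457% of all windows held 2 or more. In the Socs3 window TTCTTAGAA began 154 bases before the start site. The RefSeq start sites of Cish, Socs3, Ccl22 and Il4ra lie inside longer GENCODE M21 gene models. The sequences below, 5′ to 3′ on the gene's strand, show these matches in capitals. Stretches before the GENCODE start of Ccl22 and Socs1, which changed among the most with culture, and of Il9r, whose level differed most between naive KO and WT libraries, hold neither pattern.
Cish, chr9:107296654-107296683, plus strand: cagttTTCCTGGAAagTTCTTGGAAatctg
Socs3, chr11:117969496-117969525, minus strand: cagccTTCTTAGAAgggaggggggggaaag
Ccl22, chr8:94745484-94745589, plus strand: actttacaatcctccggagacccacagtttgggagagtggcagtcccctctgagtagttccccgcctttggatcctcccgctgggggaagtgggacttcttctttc
Socs1, chr16:10785537-10785736, minus strand: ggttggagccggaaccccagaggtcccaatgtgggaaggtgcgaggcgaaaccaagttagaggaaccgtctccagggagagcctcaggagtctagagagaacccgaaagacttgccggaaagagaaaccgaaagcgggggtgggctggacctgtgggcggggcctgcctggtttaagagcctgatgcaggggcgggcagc
Il9r, chr11:32200280-32200479, minus strand: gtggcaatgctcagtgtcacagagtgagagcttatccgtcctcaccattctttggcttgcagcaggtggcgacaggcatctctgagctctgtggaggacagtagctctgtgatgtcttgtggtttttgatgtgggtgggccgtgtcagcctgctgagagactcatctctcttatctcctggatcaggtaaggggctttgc
A match is a run of letters and not a measured site, and a window without one says nothing of STAT binding elsewhere.

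Libraries held between 33400672 and 63576147 counts. Levels are in CPM, counts scaled to the same total in each library, with TMM factors that assume most genes do not change. Libraries are numbered within a group as in the labels, and values are given in that order. Pcbp1 averaged 118 ± 48.5 CPM in the naive WT libraries (SD, n = 2) against 2.39 ± 2.75 in the KO ones (n = 2). In iGCB libraries it averaged 267 ± 103 CPM in WT (n = 3) against 2.75 ± 0.884 in KO (n = 3), so each stage had the direction of its labels. Summed levels of 7 B cell markers were 6188 to 9002 CPM in naive and 4226 to 5254 CPM in iGCB libraries, and 7 activation and germinal center markers summed to 301 to 535 and 1663 to 2469 CPM. Naive WT 1 and naive KO 1 were female by Xist and Y-linked genes, and the other 8 libraries male. In bulk RNA, fewer cells of a type and less RNA per cell cannot be told apart.

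With culture the inhibitors Socs1, Socs2 and Cish and the chemokine Ccl22 rose most, the receptor genes Il4ra and Il21r rose less, and Il2rg and Stat6 fell, in WT and in KO cells alike. Il9r rose in WT cells (log2 1.59), and its value in KO cells (0.12) did not pass. In WT cells 7 of the 10 genes rose and 2 fell (edgeR quasi-likelihood test, Benjamini-Hochberg adjusted p under 0.05), where 24.7% of all genes tested rose and 31.7% fell. In KO cells 6 rose and 2 fell, where 24.8% of all genes rose and 31.4% fell. The median log2 fold change of the 10 genes was 1.59 in WT and 1.16 in KO cells, beside -0.25 and -0.26 over all genes. A call for either direction was made for 56.4% of all genes in WT and 56.2% in KO cells, so a call by itself sets no gene apart. Day, medium and feeders changed together between the stages and cannot be told apart.

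**Figure D1:**
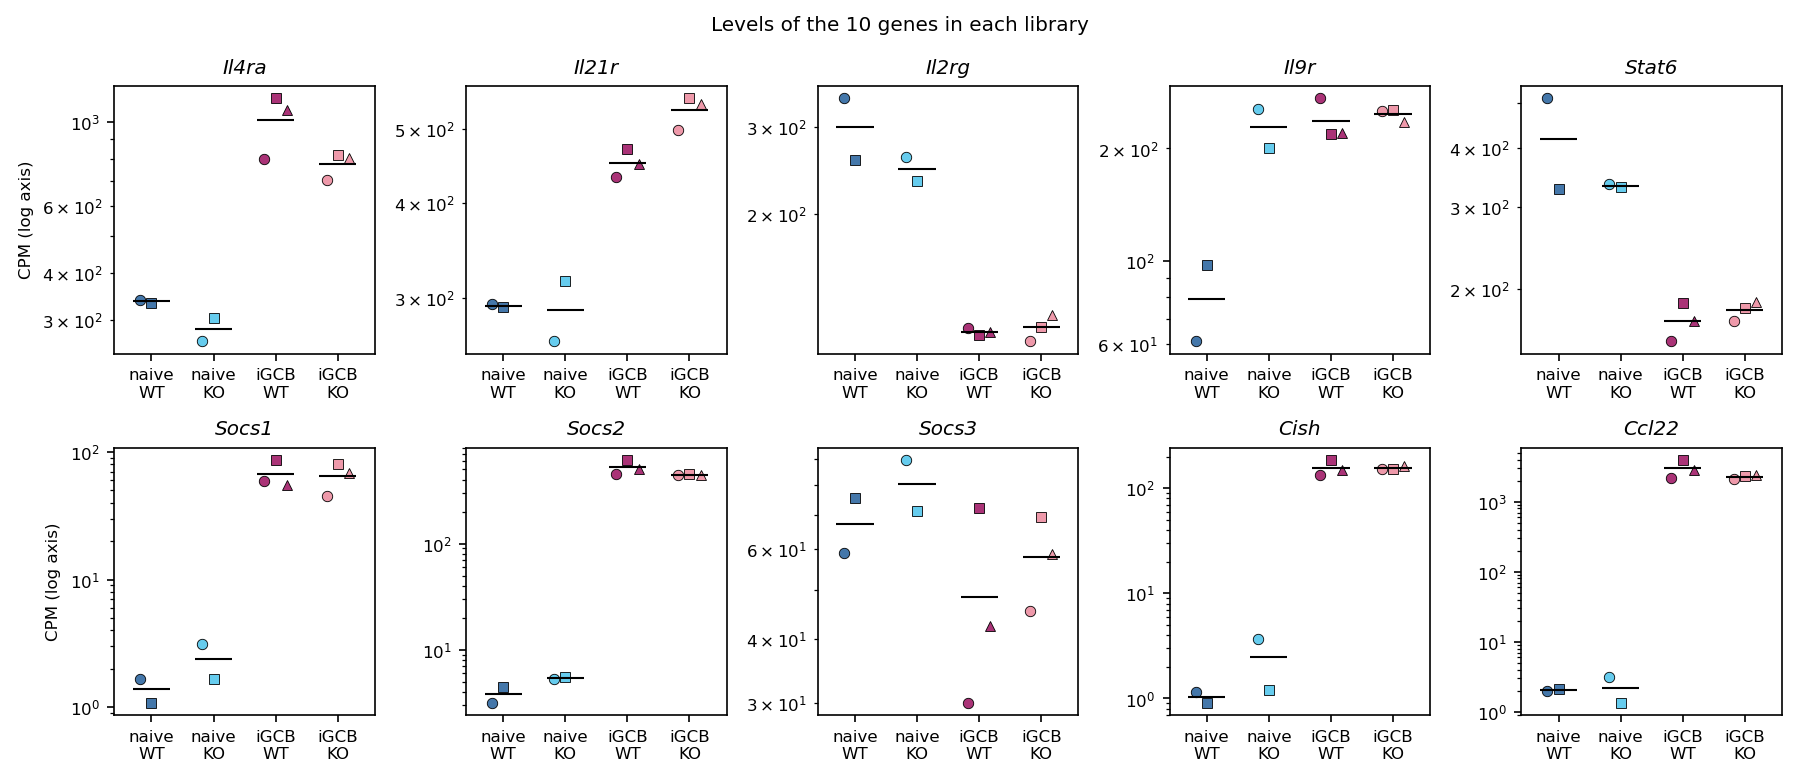
Level of each gene in CPM (log axis, own scale per gene) in each library of the 4 groups. Circles, squares and triangles are libraries 1, 2 and 3 of a group, and bars are group means. Socs1, Socs2, Cish and Ccl22 lie at 5.51 CPM or below in naive libraries and at 45.5 CPM or above in iGCB libraries.

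Il4ra (chr7:125552120-125579474, plus strand) encodes the IL-4 receptor alpha chain. It stood at 339 and 334 CPM in WT against 264 and 304 in KO for naive libraries, and at 799, 1157 and 1076 in WT against 702, 821 and 804 in KO for iGCB libraries. Every iGCB library was above every naive library, and both naive KO libraries were below both naive WT libraries. The log2 fold change with culture was 1.59 (SE 0.19, edgeR adjusted p = 7.4e-05) in WT and 1.45 (SE 0.19, adjusted p = 0.000134) in KO cells, about 3.0-fold and 2.73-fold. An antisense gene, Gm44876, with a mean count of 87.8, covers 9.5% of the Il4ra exons. Il4ra itself held 13236 to 43594 counts per library. Since the strand setting of the counting is not given, reads of the 2 genes in the shared bases cannot be told apart.

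Il21r (chr7:125603429-125633570, plus strand) encodes the IL-21 receptor and is the next gene to Il4ra, with 23954 bases and 0 annotated genes between them. It stood at 295 and 292 CPM in WT against 263 and 316 in KO for naive libraries, and at 432, 470.4 and 449.5 in WT against 499, 549 and 539.6 in KO for iGCB libraries. All 3 iGCB KO libraries were above all 3 iGCB WT libraries, and the naive KO libraries lay on either side of the WT pair. The change with culture was 0.62 (SE 0.15, edgeR adjusted p = 0.00489) in WT and 0.87 (SE 0.15, adjusted p = 0.000706) in KO cells on the log2 scale. Of these neighbours Il4ra had the larger fold change in each genotype, a difference between genes that was not tested.

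Il2rg (chrX:101264378-101268255, minus strand), the common gamma chain, fell with culture. Its level stood at 343 and 257 CPM in WT against 259.9 and 233 in KO for naive libraries, and at 117, 114 and 115 in WT against 110.3, 118 and 125 in KO for iGCB libraries. The naive libraries ranged more widely than the iGCB libraries, and no iGCB library reached the lowest naive one. The log2 fold change was -1.38 (SE 0.16, edgeR adjusted p = 4.17e-05) in WT and -1.07 (SE 0.16, adjusted p = 0.000236) in KO cells. Since Il2rg is X-linked and both female libraries are naive, sex was also fitted, which gave -1.22 and -0.92. Gm20489, on the same strand, covers 30.5% of the Il2rg exons and had a mean count of 0.5, and the reads of the pair may be split between them.

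Il9r (chr11:32187541-32200279, minus strand), the IL-9 receptor, had the widest gap between genotypes in its change with culture, a gap that did not pass its own test, given further on. It stood at 60.8 and 97.2 CPM in naive WT and at 255 and 201 in naive KO. In iGCB libraries it stood at 273, 219 and 220.0 in WT, and 253, 254 and 235 in KO. The 2 naive WT libraries were the low ones, and the other 8 libraries lay between 201 and 273 CPM. Il9r rose with culture in WT cells by 1.59 on the log2 scale (SE 0.22, edgeR adjusted p = 0.00017), and the difference in KO cells was 0.12 (SE 0.21, adjusted p = 0.647).

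Stat6 (chr10:127642986-127660957, plus strand) stood at 511 and 327 CPM in WT against 335 and 330.1 in KO for naive libraries, and at 155, 186 and 171 in WT against 171, 183 and 188 in KO for iGCB libraries. Naive WT 1 stood above the other 3 naive libraries, which lay between 327 and 335 CPM. Stat6 fell by 1.29 on the log2 scale in WT (SE 0.19, edgeR adjusted p = 0.000213) and by 0.88 in KO cells (SE 0.19, adjusted p = 0.0024). The transcription factor of the pathway and the shared receptor chain were thus lower in iGCB cells, and Il4ra was higher. Nab2, on the other strand, shares 0.9% of the Stat6 exons.

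Socs1 (chr16:10782240-10785536, minus strand), whose product binds JAKs and inhibits their kinase activity, was low in naive cells. Its level stood at 1.67 and 1.08 CPM in WT against 3.11 and 1.66 in KO for naive libraries, and at 58.9, 87.2 and 55.3 in WT against 45.5, 80.8 and 68.0 in KO for iGCB libraries. Replicate iGCB libraries spread by more than the 2 genotypes' means, 67.1 and 64.8 CPM, differed. The log2 fold change with culture was 5.59 (SE 0.43, edgeR adjusted p = 3.27e-06) in WT and 4.75 (SE 0.40, adjusted p = 7.36e-06) in KO cells.

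Socs2 (chr10:95385362-95417180, minus strand), known as an inhibitor of growth hormone signalling, showed the tightest iGCB KO values of the inhibitors. It stood at 3.17 and 4.44 CPM in WT against 5.37 and 5.51 in KO for naive libraries, and at 448, 615 and 498 in WT against 442, 451 and 439 in KO for iGCB libraries. The highest iGCB KO library lay just above the lowest iGCB WT library, and the other KO libraries below it. Levels rose 137-fold in WT (log2 7.10, SE 0.26, edgeR adjusted p = 6.06e-08) and 81.5-fold in KO cells (log2 6.35, SE 0.25, adjusted p = 1.46e-07).

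Socs3 (chr11:117966079-117970047, minus strand), which acts mainly on receptors that signal through gp130, was the inhibitor whose change with culture did not pass. Its level stood at 58.9 and 75.6 CPM in WT against 89.8 and 71.3 in KO for naive libraries, and at 30, 72.3 and 42.5 in WT against 45.3, 69.4 and 58.7 in KO for iGCB libraries. The stages overlapped in WT, where iGCB WT 2 lay inside the naive range, and did not overlap in KO. The log2 difference with culture was -0.48 in each genotype (SE 0.32 in each, edgeR adjusted p = 0.216 in WT and 0.215 in KO). Without iGCB WT 2 the WT difference was -0.89 and passed (adjusted p = 0.0197).

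Cish (chr9:107296026-107302784, plus strand), which STAT5 is known to induce, stood at 1.15 and 0.908 CPM in WT against 3.71 and 1.21 in KO for naive libraries, and at 134, 187 and 149 in WT against 153, 152 and 162 in KO for iGCB libraries. Naive KO 1 stood above the other 3 naive libraries, and the 3 iGCB KO libraries lay inside the WT range. The log2 fold change with culture was 7.23 (SE 0.47, edgeR adjusted p = 1.19e-06) in WT and 5.96 (SE 0.43, adjusted p = 2.85e-06) in KO cells. Without naive KO 1 the KO value was 7.02, close to the WT value, and with sex fitted the values were 7.85 and 6.66. The opposite-strand genes Gm17040 and Gm17041 cover 4.1% and 7.5% of the Cish exons and had mean counts of 39.5 and 0.0.

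Ccl22 (chr8:94745590-94751699, plus strand) had the largest change of the 10 genes. It stood at 1.99 and 2.12 CPM in WT against 3.09 and 1.34 in KO for naive libraries, and at 2200.0, 3983 and 2856 in WT against 2127, 2353 and 2380.2 in KO for iGCB libraries. These are 60 to 190 counts in naive libraries and 74622 to 142999 counts in iGCB libraries. Levels rose 1466-fold in WT (log2 10.52, SE 0.50, edgeR adjusted p = 2.31e-07) and 1030.3-fold in KO cells (log2 9.99, SE 0.49, adjusted p = 3.38e-07), with a log2 value of 10.74 without naive KO 1. Dendritic cells also make CCL22: their 8 markers summed to 16.1 to 41.7 CPM in naive and 81.6 to 148 in iGCB libraries. Of these, Flt3 (30.5 to 78.8 CPM) and Zbtb46 (31.0 to 48.6) made up most in iGCB libraries, Clec9a and Siglech were at 0 in all 6, and Itgax was at 6.47 CPM or less. The 10 fibroblast and feeder markers summed to 2.13 to 13.6 CPM in naive and 29.7 to 73.3 in iGCB libraries. Their part in the result was not tested.

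**Figure D2:**
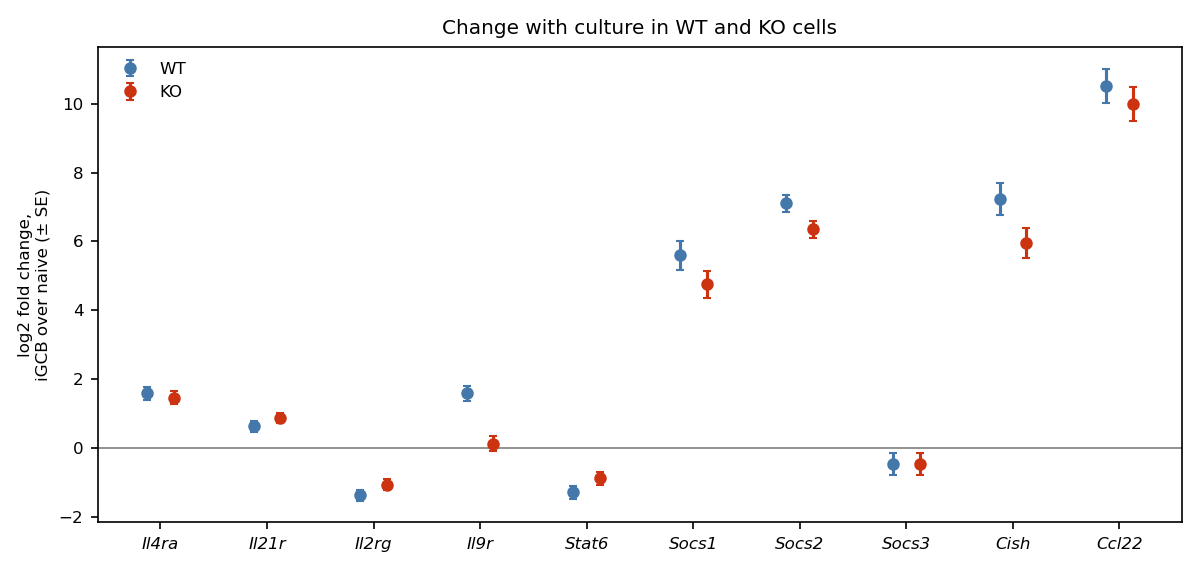
Fitted log2 fold change of iGCB over naive libraries for each gene, in WT and in KO cells, with bars of 1 SE. Il9r is the gene where the WT point (1.59) and the KO point (0.12) stand farthest apart, and Socs3 lies at -0.48 in each genotype.

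Per kilobase of exon the order of the genes also changed. In naive WT the levels ran from Il2rg (126 CPM per kb), Stat6 (95.1), Il21r (88.2) and Il4ra (56.1) over Socs3 (23.3) and Il9r (16.0) down to Ccl22 (0.884), Socs1 (0.474), Socs2 (0.399) and Cish (0.16). The libraries of Il2rg and Stat6, of Stat6 and Il21r, and of Socs1 and Socs2 overlapped between neighbours. In iGCB WT Ccl22 led with 1296 CPM per kb, ahead of Il4ra (168) and Il21r (136), and these neighbours overlapped only between Il4ra and Il21r. Socs2 (54.6), Il2rg (48.3) and Il9r (48.0) followed with overlapping libraries, then Stat6 (38.8), Cish (24.4), Socs1 (23.1) and Socs3 (16.7), of which the last 3 overlapped with their neighbours. In iGCB KO Il21r (159) stood before Il4ra (129), with libraries that did not overlap, while in naive KO Il9r (46.1) stood beside Il4ra (47.3), with libraries that did.

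The study's main question was what loss of Pcbp1 changes. In naive cells 0 of the 10 genes passed the edgeR test, beside 0.0476% of all genes. Pcbp1 itself, 49.5-fold lower in the naive KO libraries, did not pass either (log2 -5.59, SE 0.82, edgeR adjusted p = 0.0561). With 2 libraries per genotype, a gene that did not pass is therefore not shown to be unchanged. An unadjusted p under 0.05 was found for 3 of the 10, beside 1166 of all 21010 genes. DESeq2 called 1 of the 10, Il9r, beside 171 of all genes. Libraries did not overlap for 4 genes, Il4ra lower and Il9r, Socs2 and Cish higher in KO, beside 24.2% of all genes without overlap, 11.5% higher and 12.7% lower. The median log2 fold change was 0.19 over the 10 genes and -0.05 over all genes.

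Il9r came nearest to the threshold. Its mean was 79.0 ± 25.7 CPM in naive WT (SD, n = 2) and 228 ± 38.6 in naive KO (n = 2), a log2 difference of 1.53 (SE 0.23, edgeR adjusted p = 0.0664, unadjusted p = 4.11e-05). The female KO library exceeded the female WT library by 2.07 and the male KO library the male WT library by 1.05 on the log2 scale. With a library left out the difference ranged from 1.22 to 1.90, with adjusted p from 0.0092 to 0.21, and it passed without naive WT 2 or without naive KO 2. It also passed with sex fitted (1.56, adjusted p = 0.0186), without the filter on low counts (1.56, adjusted p = 4.75e-08) and with DESeq2 (1.52, adjusted p = 5.4e-06). With only the naive libraries fitted it was 1.59 (adjusted p = 1.0), a fit in which 0 genes passed. Beside it, summed B cell markers were 7314 to 9002 CPM in naive WT and 6188 to 6256 in naive KO with none of 7 at 0. Cd79a, also called Mb1, was at 1173 to 1387 CPM in naive WT and 414 to 432 in naive KO, while Cd79b, Ms4a1, Cd22, Pax5 and Blnk overlapped. Summed NK cell markers were 5.52 to 7.69 and 13.1 to 15.7 CPM with none of 5 at 0. Prf1 made up most of that sum (3.33 to 6.23 and 10.9 to 12 CPM). Klrb1c was also higher in KO (0.0504 to 0.101 and 0.56 to 1.63 CPM). Gzma was lower in KO (0.454 to 1.11 and 0.179 to 0.358), and Ncr1 and Eomes overlapped. Their part in the Il9r difference was not tested.

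Socs1, Socs2 and Cish held 36 to 330 counts per naive library. Cish differed by 1.27 (SE 0.41, edgeR adjusted p = 0.635), with 1.69 in the female pair and 0.41 in the male pair, and by 0.21 without naive KO 1. It passed without naive KO 2 (1.83, adjusted p = 0.0305) and without the low-count filter (1.29, adjusted p = 0.000726). Socs2 differed by 0.52 (SE 0.21, adjusted p = 0.804), with 0.76 and 0.31 in the pairs, and Socs1 by 0.79 (SE 0.39, adjusted p = 0.953), with 0.90 and 0.61. Among the 4 inhibitors Socs3 had pairs of opposite sign, 0.61 and -0.09. For Il4ra, Stat6 and Il2rg the naive differences were -0.24, -0.33 and -0.28, each with an edgeR adjusted p of 1.0. For Ccl22 the female pair gave 0.64 and the male pair -0.66, so no direction held across the pairs.

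**Figure D3:**
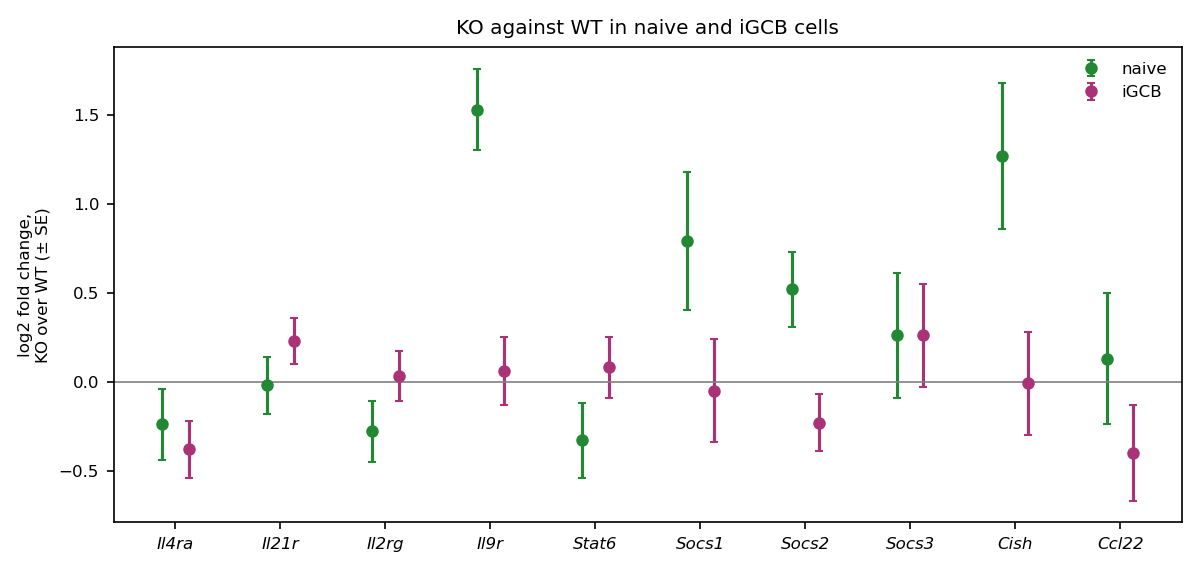
Fitted log2 fold change of KO over WT libraries for each gene in naive and in iGCB cells, with bars of 1 SE. In naive cells Il9r (1.53) and Cish (1.27) lie highest, and in iGCB cells the points lie between -0.40 and 0.26.

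In iGCB cells 0 of the 10 genes passed, beside 1.27% of all genes. An unadjusted p under 0.05 was found for 1, Il4ra, beside 2051 of all 21010 genes. DESeq2 called 0 of the 10, beside 832 of all genes. The median log2 fold change was 0.01 over the 10 genes and 0.0 over all genes. Il4ra was at 1010.4 ± 188 CPM in WT and 776 ± 64 in KO (SD, n = 3 each), a log2 difference of -0.38 (SE 0.16, edgeR adjusted p = 0.477), with overlapping libraries. Of the 10, Il21r alone had libraries that did not overlap, beside 20.5% of all genes (10.2% higher), at 451 ± 19.2 CPM in WT and 529 ± 26.6 in KO (0.23, SE 0.13, adjusted p = 0.64). Ccl22 differed by -0.40 (SE 0.27, adjusted p = 0.733) and Socs2 by -0.23 (SE 0.16, adjusted p = 0.741). Il9r, Il2rg, Stat6, Socs1 and Cish differed by 0.06, 0.03, 0.08, -0.05 and -0.01, each by less than its SE. One library weighed on these values: iGCB WT 2 was the highest WT library for 8 of the 10 genes, beside 29.6% of all genes. Without it the differences were -0.27 for Il4ra, -0.14 for Ccl22, -0.09 for Socs2 and 0.67 for Socs3 (adjusted p = 0.464).

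Whether the KO effect differed between stages was tested as the effect in iGCB minus that in naive cells. Again 0 of the 10 genes passed, beside 0.0333% of all genes. An unadjusted p under 0.05 was found for 3, beside 1273 of all 21010 genes. DESeq2 called 1 of the 10, beside 242 of all genes. Il9r had the largest difference, -1.47 (SE 0.30, edgeR adjusted p = 0.184), then Cish with -1.27 (SE 0.50, adjusted p = 0.723) and Socs2 with -0.75 (SE 0.27, adjusted p = 0.624). Without naive KO 1 the Cish value was -0.22 and that of Socs2 -0.76, and without the low-count filter Cish passed (-1.33, adjusted p = 0.0075). The Il9r value passed with sex fitted (-1.50, adjusted p = 0.0429), without naive WT 2 (-1.84, adjusted p = 0.0342), without the low-count filter (-1.53, adjusted p = 8.09e-05) and with DESeq2 (-1.47, adjusted p = 0.00204). This value and the 2 changes with culture use the same libraries and are not separate evidence.

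The other genes of the pathway were read from 5 lists. For KO against WT, an unadjusted p under 0.05 was found for 1166 of all 21010 genes in naive and 2051 in iGCB cells. DESeq2 called 171 and 832 of all genes there. Of 12 ligand genes 4 had enough counts to test, namely Il4, Il6, Il10 and Il15. Il4 was at 0.0814 to 1.06 CPM in naive libraries, 6.86 to 16.5 in iGCB WT and 3.53 to 9.66 in iGCB KO, and rose with culture by 4.28 in WT (SE 0.94, edgeR adjusted p = 0.00291) and 4.37 in KO cells (SE 0.96, adjusted p = 0.00302). With a library left out these values ranged from 3.46 to 6.08 in WT, the extremes without naive WT 1 and naive WT 2, and from 3.55 to 6.15 in KO, without naive KO 1 and naive KO 2. Il10, at means of 2.17 and 4.23 CPM in naive WT and KO, was at 0.0658 and 0.115 CPM in iGCB WT and KO. Summed T cell markers were 13.4 to 66.2 CPM in naive and 259 to 419 in iGCB libraries with none of 9 at 0 in a whole group, with Thy1 at 257 to 413 and Cd3e at 0.501 or less in iGCB libraries. Summed myeloid markers were 45.6 to 319 CPM in naive and 23.2 to 75.8 in iGCB libraries, with S100a8 at 0 in all iGCB libraries. Erythroid and platelet markers summed to 31.3 to 219 CPM in naive and 3.16 to 8.74 in iGCB libraries, with Hba-a2 at 0 in all iGCB libraries, and the part of these cells in the Il4 and Il10 values was not tested. With culture 1 of the 4 ligand genes rose and 1 fell in WT, and 2 rose and 1 fell in KO cells, where 24.7% and 24.8% of all genes rose and 31.7% and 31.4% fell. In KO against WT, 0 ligand genes passed at either stage, 0 had an unadjusted p under 0.05 and DESeq2 called 0.

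Among 16 other receptor genes, 2 rose and 8 fell with culture in WT and as many in KO cells, beside the same shares of all genes (24.7% and 31.7% in WT). For KO against WT 0 passed in naive cells (3 with an unadjusted p under 0.05, 0 with DESeq2). In iGCB cells DESeq2 called 1 of 16 higher and 3 lower in KO, beside 832 of all genes called by DESeq2. With edgeR 1 of 16 rose in KO and 0 fell, beside 1.27% of all genes called. This was Il27ra, a subunit of the IL-27 receptor, at 14.1, 15.1 and 15.3 CPM in WT and 26.7, 37.0 and 30.6 in KO. Every KO library was above every WT library (log2 1.08, SE 0.18, edgeR adjusted p = 0.0151). With an iGCB library left out its adjusted p was 0.0419 to 0.0954, and it passed only without iGCB KO 1. In naive libraries Il27ra was at 69.0 and 51.1 CPM in WT and 99.9 and 80.8 in KO, a difference that did not pass (0.59, SE 0.21, adjusted p = 0.751).

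Of 10 other JAK and STAT genes, 3 rose and 4 fell with culture in WT cells, and 2 rose and 2 fell in KO cells, where 56.4% and 56.2% of all genes were called. Jak1, the kinase bound to the IL-4 receptor alpha chain, fell by 1.54 in WT (SE 0.16, edgeR adjusted p = 2.57e-05) and by 1.01 in KO cells (SE 0.16, adjusted p = 0.000414) on the log2 scale. Jak3, the kinase bound to the common gamma chain, rose by 0.79 in WT (SE 0.28, adjusted p = 0.0331), and its difference in KO cells was 0.52 (SE 0.28, adjusted p = 0.135). The WT call was lost without naive WT 2 (0.64, adjusted p = 0.163) and without iGCB WT 2 (0.52, adjusted p = 0.123). The KO value passed with sex fitted (0.76, adjusted p = 0.0358) and without the low-count filter (0.52, adjusted p = 0.0448). For KO against WT 0 of 10 passed in naive cells (2 with an unadjusted p under 0.05, 0 with DESeq2), and in iGCB cells 1 fell, beside 1.27% of all genes called. This was Tyk2, a kinase of type I interferon and several cytokine receptors, at 78.1, 102 and 78.3 CPM in WT and 50.9, 48.0 and 53.7 in KO (-0.76, SE 0.16, adjusted p = 0.0477). In naive libraries Tyk2 was at 85.0 and 65.3 CPM in WT and 55.0 and 55.8 in KO (-0.44, SE 0.19, adjusted p = 0.868). With an iGCB library left out the iGCB value did not pass (adjusted p 0.0813 to 0.197).

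Of 12 other negative regulators 2 rose and 5 fell with culture in WT, and 2 rose and 4 fell in KO cells, near the 56.4% and 56.2% of all genes called. In KO against WT 0 passed in naive cells (1 with an unadjusted p under 0.05, 0 with DESeq2) and 1 rose in iGCB cells, where 1.27% of all genes were called. This was Socs5, a further SOCS gene, at 12.1, 9.75 and 9.0 CPM in WT and 25, 17.0 and 20.1 in KO (1.01, SE 0.20, edgeR adjusted p = 0.0359). Its levels in iGCB KO lay between those of iGCB WT and of naive libraries, which were 30.6 to 39.3 CPM. With an iGCB library left out it did not pass (adjusted p 0.0581 to 0.179).

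Of 6 genes named for IL-4 induction or the CCL22 axis, 4 rose and 0 fell with culture in WT, and 5 rose and 0 fell in KO cells, where 24.7% and 24.8% of all genes rose. Fcer2a, which encodes the IgE receptor CD23, stood at 823 to 880.2 CPM in naive libraries, 1296 to 1589 in iGCB WT and 1674 to 2041 in iGCB KO. It rose by 0.79 in WT (SE 0.17, edgeR adjusted p = 0.00283) and 1.20 in KO cells (SE 0.17, adjusted p = 0.000225), and its KO difference in iGCB cells was 0.37 (SE 0.15, adjusted p = 0.425). Il4i1, an amino acid oxidase gene, had 0.197 to 1.02 CPM in iGCB WT and 1.62 to 2.14 in iGCB KO (1.46, SE 0.71, adjusted p = 0.553). In KO against WT 0 of 6 passed at either stage, with an unadjusted p under 0.05 for 0 in naive and 1 in iGCB cells and 0 calls by DESeq2.

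**Figure D4:**
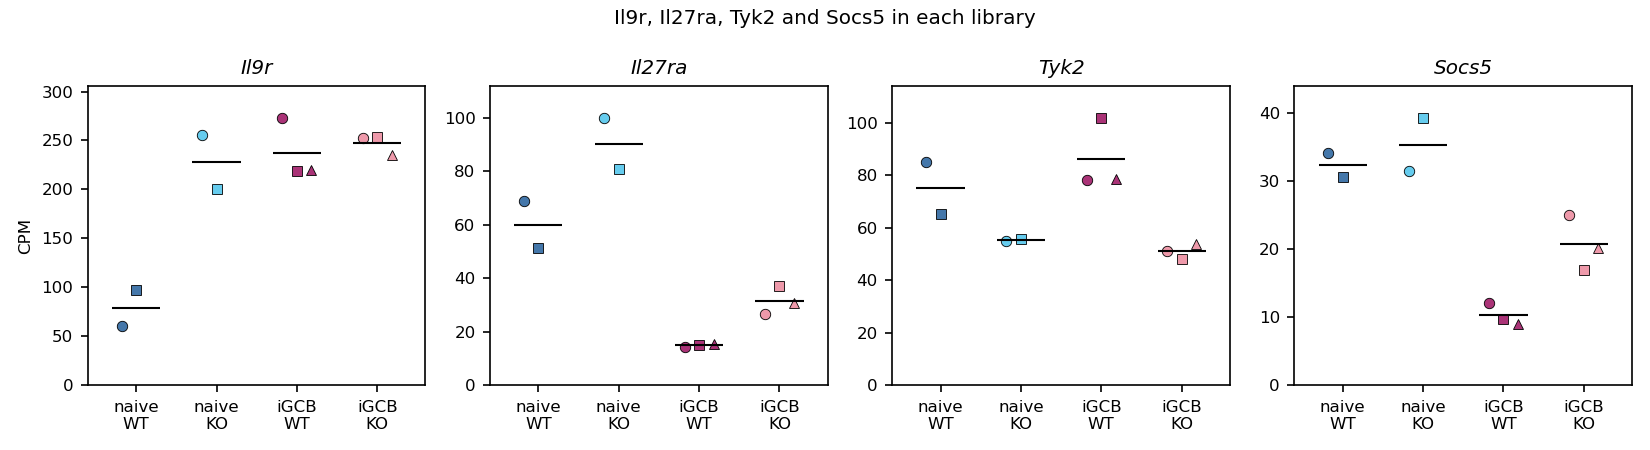
Level in CPM of Il9r and of the 3 pathway genes that passed for KO against WT in iGCB cells, Il27ra, Tyk2 and Socs5, in each library. Circles, squares and triangles are libraries 1, 2 and 3 and bars are group means. The Il9r libraries of naive WT lie at 97.2 CPM or below and all others at 201 CPM or above.

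Genes whose levels followed each member most closely over the 10 libraries were listed by Pearson's r of log2 CPM among 9569 genes. The points share the split between naive and iGCB libraries, which sets most of r, so r is a description. Ccl22 was closest to Klhdc2 and Ly75 (each 0.999), Cish to Slc35f5 (0.998) and Ankrd46 (0.997), Socs1 to Ccdc34 and Slc35f5 (each 0.996), and Socs2 to Ccnb2 and Tnfrsf8 (each 0.998). Il4ra was closest to H1f0 and Sec22b (each 0.991), Il21r to Rps16-ps2 and Rpe (each 0.989), Il2rg to Prcp and Siglecg (each 0.995), and Stat6 to Plcg2 (0.993) and Whamm (0.988). With culture Il9r passed in WT cells alone and Socs3 in neither genotype, and these 2 genes had the weakest neighbours. Il9r was closest to Slc9a5 (0.96) and Zdhhc1 (0.928), and Socs3 to Txnrd3 (0.886) and Fam210b (0.881).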

How the data were processed

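RNA-seq libraries of 10 mouse B cell samples were analysed. The deposited values are whole-number counts for each symbol. The submitters' processing notes name featureCounts and the mm10 build. Aligner, annotation, tool versions and strandedness: not given in the sources used here. Odd values made up 17.7% to 26.9% of counts from 1 to 20, as when the mates of a pair are counted singly. Positions came from GENCODE M21.

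Genes were filtered with filterByExpr (minimum count 10), scaled with TMM and fitted in edgeR 4.0.16 (R 4.3.3) with a quasi-likelihood model over the 4 groups (6 residual degrees of freedom). Tests were two-sided at 0.05, with p-values adjusted by Benjamini and Hochberg's method over 21010 genes. SE is the absolute log2 fold change over the square root of F. The fit was tested on simulated data. Alternatives were DESeq2 1.42.0, RLE size factors, library size alone, no filter, a minimum count of 30, only the groups compared, a replicate block, sex as covariate and each library left out.

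Named were the 10 members, Pcbp1, Jak1, Jak3, Fcer2a, up to 3 called genes of each pathway list per KO comparison or otherwise the 2 with the smallest p in iGCB cells, and the 2 genes most like each member (mean log2 CPM of at least 2, prior count 2). The members and lists were chosen with earlier results of these data known. Library numbers were not taken as pairs.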

Additional observations from a re-analysis of the deposited data

How the results depend on the processing

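Genes called for KO against WT in naive cells numbered 10 in the fit as reported, 242 without the low-count filter, 0 with only the groups compared, 31 with the replicate block, 57 with sex fitted, 171 with DESeq2 and 12 to 44 with a library left out. Members called there numbered 0, against 2 without the filter, 1 with sex, 1 with DESeq2 and 0 to 2 with a library left out. In iGCB cells 266 genes were called, against 841 without the filter, 863 with only the groups compared, 589 with the replicate block, 640.0 with sex, 832 with DESeq2 and 41 to 184 with a library left out. For the difference of KO effects 7 genes were called, against 373 without the filter, 74 with the block, 108 with sex, 242 with DESeq2 and 0 to 65 with a library left out, and 0 members, against 2 without the filter, 1 with sex, 1 with DESeq2 and 0 to 1. Under the block Il21r in WT culture no longer passed (0.62, adjusted p = 0.0677), and Il9r gave 1.56 in naive cells (adjusted p = 0.0527). Deviations of log2 CPM from the group mean were correlated between same-numbered WT and KO libraries over 10103 genes. In iGCB cells r was 0.46, -0.12 and 0.04. In naive cells it was 0.55 and 0.55, which 2 libraries per group make equal by construction. Naive libraries of the same number also shared their sex, so pairing and sex cannot be told apart there. The numbers were not taken to pair libraries at either stage. Scaling by library size alone moved the median of all genes from -0.05 to 0.07 in naive cells and from 0.04 to -0.1 for the difference of KO effects. With culture it was -0.25 in WT and -0.26 in KO cells, against -0.21 and -0.36 with library size alone and -0.34 and -0.36 with RLE. TMM assumes that most genes do not change, while 56.4% and 56.2% of all genes were called with culture. Of 690 fold changes of the members under alternatives, 649 kept direction and side of the threshold, 1 lost and 13 gained the call and 27 changed sign, and of 620 for the other pathway genes 576, 26, 2 and 16 did. Apart from left-out libraries, the sign changed in naive cells for Il21r (0.12 with library size alone, 0.01 without the filter, 0.03 with only the groups compared) and Fcer2a (0.09 with library size), in iGCB cells for Il2rg (-0.01 without the filter) and Cish (0.01 with the block), and for the difference of KO effects for Socs3 (-0.0 with RLE, -0.12 with library size, -0.06 without the filter, -0.01 at the higher minimum count, -0.0 with sex, -0.0 with DESeq2) and Il4 (-0.03 with library size). With 1 library left out the sign changed, over these ranges, in naive cells for Il21r (-0.16 to 0.1), Stat6 (-0.63 to 0.02), Ccl22 (-0.62 to 0.59), Il4 (-2.82 to 0.73), Il4i1 (-1.24 to 0.33) and Socs5 (-0.04 to 0.26). It did so in iGCB cells for Il2rg (-0.01 to 0.07), Socs1 (-0.25 to 0.18), Cish (-0.11 to 0.14) and Il10 (-1.12 to 5.32), and for Il9r in KO culture (-0.04 to 0.31). For the difference of KO effects it did so for Socs3 (-0.25 to 0.41), Ccl22 (-0.99 to 0.23), Il10 (-2.08 to 4.36), Il4 (-1.69 to 1.86) and Jak3 (-0.53 to 0.04). The fit on only the groups compared was not run for the difference of KO effects. In fits that leave 1 library in a naive group, that library is assumed to vary like the other groups.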

Other observations

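Other genes of the lists, chosen after their values were seen, changed more with culture than the receptors described above. Il5ra, a subunit of the IL-5 receptor, rose from 45.7 to 671 CPM in WT (log2 3.88, SE 0.20, edgeR adjusted p = 4.02e-07) and from 69.9 to 477 CPM in KO cells (2.77, SE 0.19, adjusted p = 1.96e-06). Its KO libraries lay above WT in naive cells (0.61, adjusted p = 0.56) and below WT in iGCB cells (-0.49, adjusted p = 0.212), and the difference of these effects was -1.11 (SE 0.24, adjusted p = 0.196). Stat5a rose by 2.57 in WT and 2.81 in KO cells. Others fell with culture. The log2 change of Il10ra was -3.1 in WT and -3.35 in KO cells, and that of Il10rb was -1.9 and -2.18. Ccr4, which encodes the receptor of CCL22, rose from 0.61 to 112 CPM in WT and from 0.693 to 96.3 CPM in KO cells. Nfil3, a transcription factor gene known to respond to IL-4, rose from 9.61 to 374 CPM in WT and from 9.55 to 405 CPM in KO cells. The edgeR adjusted p for KO against WT in iGCB cells was 0.705 for Stat5a, 0.882 for Ccr4 and 0.966 for Nfil3. Naive KO 1 was the higher naive KO library for 7 of the 10 members, beside 49.8% of all genes.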
